A study of Mus musculus with 4 samples.

Results

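The complement and coagulation genes described here are 36 genes that encode complement proteins, their receptors and regulators, and the proteins that form and remove blood clots. They were chosen by gene symbol, and all 36 were found among the 24421 genes of the deposited matrices. Complement accounts for 25 of them and coagulation and fibrinolysis for 11. Expression had been measured by poly(A) RNA-seq in epididymal adipose tissue, a visceral fat depot, of wild-type (WT) male C57BL/6J mice, with 2 libraries per group. WC1 mice, the weight cycling group, were given 8 weeks of high-fat diet (HFD) starting at the age of 8 weeks, then 2 weeks of standard diet (SD), then 6 more weeks of HFD. Ctrl mice, the high-fat control group, began HFD at 10 weeks of age and stayed on it for 14 weeks. The time on HFD thus came to 14 weeks in both groups, the final age to 24 weeks, and no lean group is analysed here. The question was how the local complement and clotting transcripts of obese fat differed with the history of weight loss and regain. The labels do not say whether a library came from a single mouse or a pool, so the p-values measure only the spread between these libraries.

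Between 61465029 and 90965297 reads per library were recovered from the first matrix, whose values are written as CPM (reads scaled to library size, with a further factor per library set by the authors). At this depth 3 reads corresponded to between 0.0345 and 0.0492 CPM, the limit that a count of 0 allows, for counting error only. The tissue label was checked with marker genes: the summed level of 10 adipocyte markers was 10338 and 11640 CPM in Ctrl versus 18539 and 23659 CPM in WC1, and the sum of 7 epididymis markers was at most 0.0919 CPM in 3 libraries and 3.18 CPM in WC1 library 1, where Adam7 stood at 3.02 CPM. Several cell type markers moved with the groups. All 10 adipocyte and all 8 endothelial markers were higher in WC1 without overlap, and all 6 mast cell markers were lower. Of 10 macrophage markers, 7 were lower and 1 was higher without overlap.

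Complement is a cascade of plasma proteases that tags surfaces and damaged cells with fragments of C3, releases small peptides that attract and activate leukocytes, and can end in a membrane pore. It is started by C1q on bound antibody or cell debris (classical pathway), by lectins on sugars (lectin pathway), or by slow activation of C3 itself (alternative pathway). Most circulating components come from the liver, but macrophages are a main source of C1q, and adipose tissue makes C3, factor B and factor D. Clotting is a related cascade that starts when tissue factor meets factor VII and ends in fibrin, and plasmin, made from plasminogen by urokinase or tissue plasminogen activator, dissolves fibrin again.

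In WC1 the C1q chain genes C1qa and C1qc, the C1 protease genes C1ra and C1s1, properdin, C5, C7, the protein C receptor and the urokinase receptor fell, while factor B, the membrane attack complex inhibitor Cd59a and the C1r-like protease C1rl rose. Of the 36 genes, 35 passed the filter of 0.5 CPM in 2 libraries and were tested with limma. Differences given as value ± error are log2 fold changes (WC1 minus Ctrl, on the log2(CPM + 1) scale) with their SE, and p-values were adjusted over all genes tested. At an adjusted p under 0.05, 3 were higher and 9 were lower in WC1. These are 8.57% and 25.7% of the genes tested here, compared to 10.2% and 7.71% of all 14106 genes tested. Together 34.3% of the set were called, compared to 17.9% of all genes. The group ranges did not overlap in 27 of the 35 genes, a share of 77.1% compared to 69.3% over all genes. Of these, 9 were higher and 18 were lower, where 32.7% and 36.6% of all genes lay without overlap in each direction. An unadjusted p under 0.05 was found for 23 of the 35, compared to 37.8% of all genes. The median log2 fold change of the set was -0.25, compared to -0.02 over all genes tested. In the TPM matrix the median of all genes was 0.10, a shift of 0.12, that of the set was -0.11, and 77.9% of all called genes were higher compared to 57.0% in CPM. edgeR on the recovered reads called the same 12 genes (17.6% of all genes), and DESeq2 called these 12 and more, 5 higher and 13 lower in all (27.4% of all genes). Without the filter limma called 7 of the 12 (7.28% of all genes). With a Ctrl library left out, the spread came from the WC1 libraries alone, and few genes were called. The differences of the 12 called genes kept their sign with any library left out. Without Ctrl library 1 limma called 0 of the 35, with 12 at an unadjusted p under 0.05, and 0.043% of all genes. Without Ctrl library 2 it called Procr alone, with 15 at an unadjusted p under 0.05, and 0.115% of all genes. Without WC1 library 1 all 12 were called among 24 (37.5% of all genes), and without WC1 library 2 all 12 were called among 19 (19.9% of all genes).

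**Figure D1:**
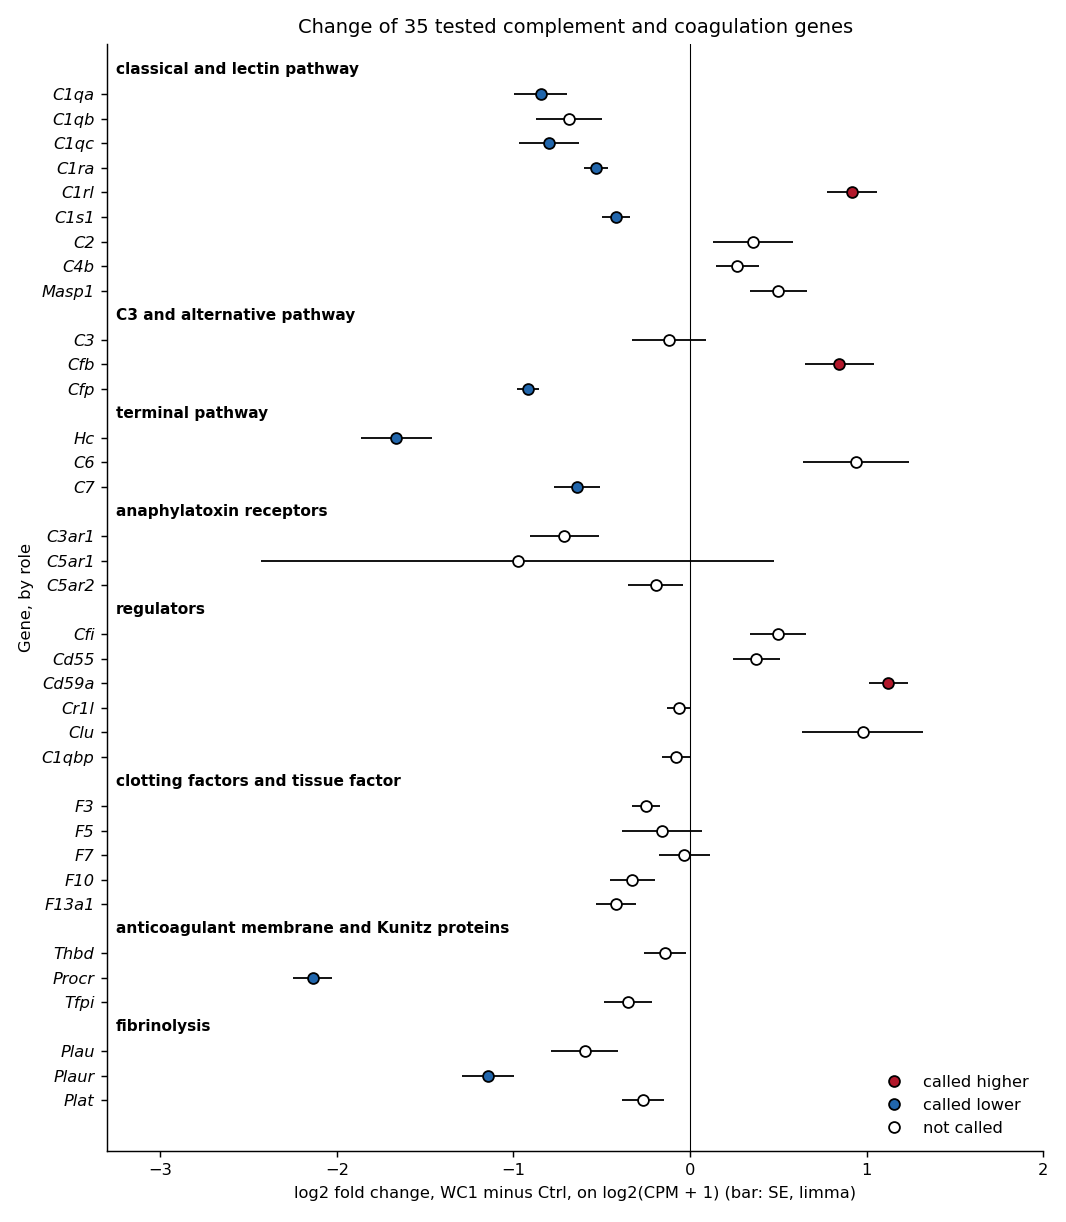
log2 fold change (WC1 minus Ctrl, on the log2(CPM + 1) scale, with the SE from limma as bars) of the 35 genes tested, grouped by role, with filled points for the 12 called genes. Values run from -2.14 for Procr to 1.12 for Cd59a, and the single very wide bar belongs to C5ar1 (SE 1.45).

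C1q, the recognition subunit of the classical pathway, is built from chains encoded by C1qa, C1qb and C1qc. By the mean TPM over the 4 libraries, these were the most abundant of the 36 transcripts. In WC1 library 2, however, C3 (974 TPM) lay above C1qc (886 TPM) and C1qa (837 TPM). C1qa stood at 874 and 853 CPM in Ctrl versus 547 and 421 CPM in WC1. C1qb stood at 1164 and 1107 CPM in Ctrl versus 838 and 594 CPM in WC1, and C1qc at 892 and 874 CPM in Ctrl versus 592 and 434 CPM in WC1. For each chain both WC1 libraries lay below both Ctrl libraries, with library 2 the lower one in WC1. C1qa fell by 0.85 ± 0.15 (SE) on the log2 scale (adjusted p = 0.028) and C1qc fell by 0.80 ± 0.17 (adjusted p = 0.038). The difference of -0.69 ± 0.19 for C1qb missed the threshold in limma and in edgeR (adjusted p = 0.065 in limma) but passed it in DESeq2. The TPM ratio of C1qc to C1qa was 1.05 and 1.05 in Ctrl versus 1.11 and 1.06 in WC1, and that of C1qb to C1qa was 1.36 and 1.32 in Ctrl versus 1.56 and 1.44 in WC1. Both ratios were higher in WC1 without overlap, and neither was tested. The calls of C1qa and C1qc were lost when no filter on low values was applied (adjusted p = 0.054 and 0.069), and that of C1qc also in TPM (adjusted p = 0.053).

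The summed level of the C1q genes moved with the macrophage markers. It was 2930 and 2834 CPM in Ctrl versus 1977 and 1449 CPM in WC1, while the sum of the 10 macrophage markers was 10284 and 9307 CPM in Ctrl versus 5977 and 4243 CPM in WC1. Of these markers, 4 were called lower (Lyz2, Mrc1, Itgam and Mertk), 0 were called higher, and none was at 0. C1q amounted to 28.5% and 30.5% of the macrophage marker sum in Ctrl and to 33.1% and 34.2% in WC1. Lyz2 held between 48.1% and 60.2% of that sum in a library, and over the other 9 markers C1q amounted to 71.6% and 71.7% in Ctrl and to 63.7% and 66.0% in WC1, so the direction of this ratio depended on Lyz2. The median log2 fold change of the 10 markers was -0.59. In bulk tissue, fewer cells of a type and less RNA per cell cannot be told apart, and the part of the macrophage markers in the result was not tested.

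**Figure D2:**
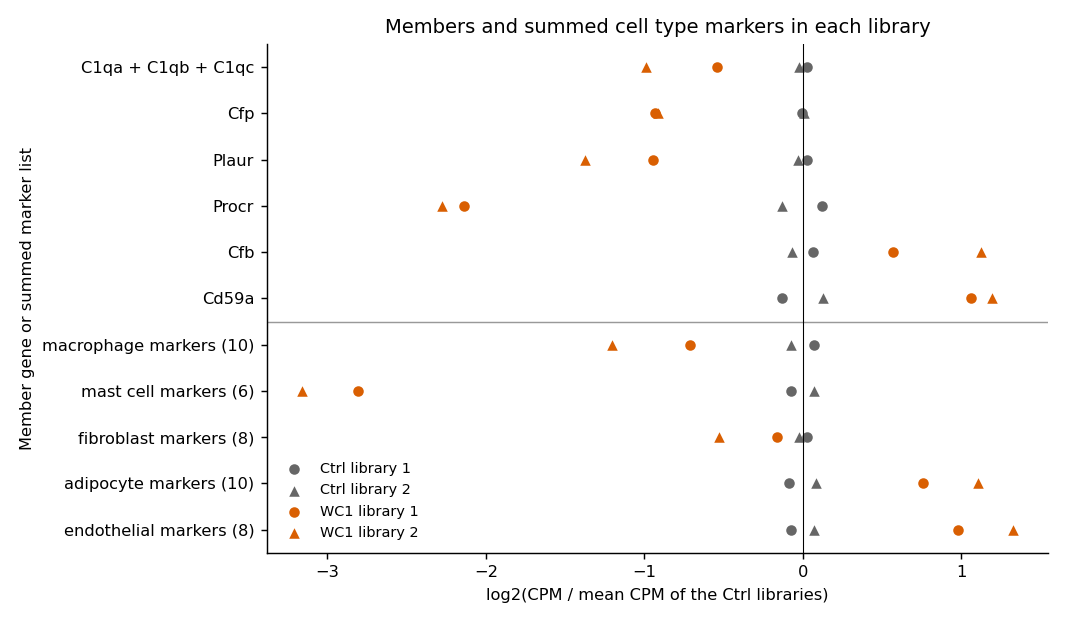
Level of the summed C1q genes and of 5 single genes (upper rows) and of summed cell type markers (lower rows) in each library, as log2 of CPM over the mean of the Ctrl libraries, with the number of markers in brackets. The summed C1q genes and the macrophage markers lie below 0 in both WC1 libraries, the endothelial and adipocyte markers lie above 0, and Procr lies on the opposite side from the endothelial markers.

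The C1q genes lie side by side on the minus strand of chromosome 4 (GRCm38, the build named mm10 in the submitters' notes; gene models from GENCODE M21): C1qb at chr4:136880129-136886187, C1qc at chr4:136889804-136893065 and C1qa at chr4:136895917-136898803. Since these neighbours differed in the same direction, the bases before the start of C1qb and C1qc are shown, next to those of Procr and Cd59a, the genes with the largest fall and rise on the log2(CPM + 1) scale. The sequences come from RefSeq (GRCm38.p6), are written 5′ to 3′ on the strand of the gene and end before the most upstream start that RefSeq or GENCODE gives the gene. RefSeq windows of 250 bases before a start were found for 26 of the 36 genes, 30 windows in all. Capitals mark any match on either strand to 5 motifs, searched as plain letters. The TATA box was searched as TATAAA, the GC box as GGGCGG and the CCAAT box by the letters of its name. The PU.1 core, whose factor is a regulator of macrophage genes, was searched as GAGGAA. The C/EBP site was searched as TTNCGNAA, where N is any base. No match overlapped another in the stretches shown. The stretches are chr4:136886201-136886450 on the minus strand, chr4:136893066-136893164 on the minus strand, chr2:155750967-155751116 on the plus strand and chr2:104095551-104095800 on the plus strand.
C1qb: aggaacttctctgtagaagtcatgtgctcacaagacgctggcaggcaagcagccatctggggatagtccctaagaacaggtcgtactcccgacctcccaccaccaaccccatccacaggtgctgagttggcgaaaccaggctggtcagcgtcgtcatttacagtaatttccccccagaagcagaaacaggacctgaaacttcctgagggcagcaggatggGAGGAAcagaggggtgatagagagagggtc
C1qc: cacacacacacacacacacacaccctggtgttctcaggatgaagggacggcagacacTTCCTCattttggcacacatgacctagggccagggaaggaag
Procr: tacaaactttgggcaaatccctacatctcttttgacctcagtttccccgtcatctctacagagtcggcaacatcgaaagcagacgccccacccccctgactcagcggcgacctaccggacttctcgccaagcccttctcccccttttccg
Cd59a: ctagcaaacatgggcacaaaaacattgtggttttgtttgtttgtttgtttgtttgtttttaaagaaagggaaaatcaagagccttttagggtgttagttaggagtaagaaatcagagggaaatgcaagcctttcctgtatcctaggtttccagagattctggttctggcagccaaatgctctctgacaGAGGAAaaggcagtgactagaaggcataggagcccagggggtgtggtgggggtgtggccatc
The PU.1 core was present once in the stretches of C1qb, C1qc and Cd59a and absent from that of Procr. It occurred in 8 of these 30 windows, 1 each of C1qb, C1qc, C5ar2, Cd59a, F13a1, F7, Plaur and Tfpi, and in 23.3% of all 32851 windows of this length. The C/EBP motif was present in 1 of the 30 windows, that of C3, and in 2.04% of all windows. The TATA box was present in 4 of the 30 windows (C3ar1, C7, Hc and Tfpi) and in 12.4% of all windows, the CCAAT box in 5 of 30 and 33.8%, and the GC box in 8 of 30 and 32.7%. A match is a description of letters and not of binding.

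Among the other classical pathway genes, the C1 proteases fell and the C1r-like protease rose. C1ra, which encodes the protease that activates C1s, stood at 207 and 196 CPM in Ctrl versus 139 and 139 CPM in WC1 (-0.53 ± 0.07, adjusted p = 0.018). C1s1, which encodes the protease that cleaves C4 and C2, stood at 481 and 468 CPM in Ctrl versus 361 and 349 CPM in WC1 (-0.42 ± 0.08, adjusted p = 0.032). C1rl, a relative of C1r, stood at 10.5 and 11.7 CPM in Ctrl versus 19.3 and 24.7 CPM in WC1, a rise of 0.92 ± 0.14 (adjusted p = 0.024). The group ranges of these genes did not overlap. Of 8 fibroblast markers, Pdgfra, Dcn and Lum were called lower (0 higher) and 5 were lower and 1 higher without overlap, with a median log2 fold change of -0.39. Their sum was 9118 and 8775 CPM in Ctrl versus 7976 and 6209 CPM in WC1, and their part in the levels of C1ra and C1s1 was not tested. The call of C1s1 was lost without the filter (adjusted p = 0.052) and after quantile normalization (adjusted p = 0.055), and the exons of C1s1 overlap those of Gm16567 on the opposite strand. The 3 genes are neighbours on chromosome 6: C1rl ends at position 124510643 and C1ra begins 1761 bases further on, so the adjacent genes moved in opposite directions. Per length, C1rl reached 0.046 and 0.055 of the TPM of C1ra in Ctrl and 0.127 and 0.162 in WC1. Because C1ra, C1s1, C4b and Cd59a have related copies (C1rb, C1s2, C4a and Cd59b), each was also summed with its copy. This alternative was chosen after seeing the data, and no call among them changed. How alike the copies are was not measured.

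C4b and C2 encode the proteins that C1s cleaves to build the classical C3 convertase, and neither was called. C4b stood at 914 and 918 CPM in Ctrl versus 1031 and 1178 CPM in WC1, higher without overlap (0.27 ± 0.12, adjusted p = 0.18). C2 stood at 40.5 and 36 CPM in Ctrl versus 38.8 and 62.0 CPM in WC1, and its groups overlapped (0.35 ± 0.23, adjusted p = 0.31). Masp1, a protease of the lectin pathway, was rare: it had 32 and 39 reads in Ctrl versus 51 and 83 reads in WC1 and passed the filter only through its WC1 libraries (0.50 ± 0.16, adjusted p = 0.093). Of the 9 classical and lectin pathway genes, 1 was thus called higher and 4 were called lower, compared to 10.2% and 7.71% of all genes, with a median log2 fold change of -0.42 compared to -0.02 over all genes.

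**Figure D3:**
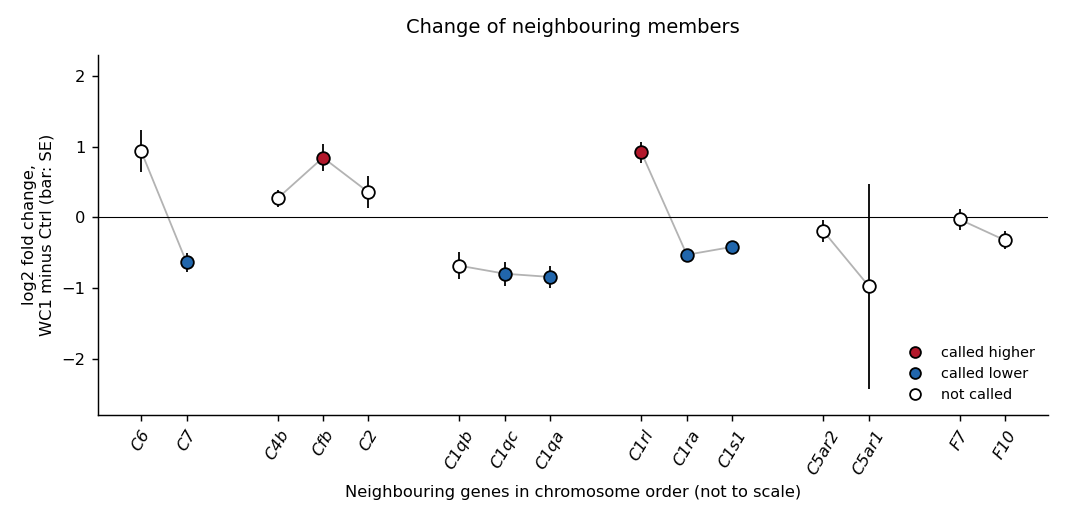
log2 fold change (WC1 minus Ctrl, SE from limma as bars) of members that neighbour each other on a chromosome, in chromosome order and not to scale, with lines joining neighbours. C1qb, C1qc and C1qa share a direction (-0.69, -0.80 and -0.85), whereas C1rl (0.92) and C1ra (-0.53), and C6 (0.94) and C7 (-0.64), lie on opposite sides of 0.

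The alternative pathway genes diverged. C3, the protein on which all routes converge, stood at 2342 and 2033 CPM in Ctrl versus 1735 and 2326 CPM in WC1. Its groups overlapped, with a difference of -0.12 ± 0.21 (adjusted p = 0.70) that turned to 0.02 in TPM. Cfb, which encodes factor B, the protease of the alternative C3 convertase, stood at 332 and 303 CPM in Ctrl versus 471 and 690 CPM in WC1. The mean rose from 317 ± 20.4 to 580 ± 155 CPM (SD, n = 2 libraries), 1.83-fold or 0.85 ± 0.20 on the log2 scale (adjusted p = 0.046). Both WC1 libraries were above both Ctrl libraries, with library 2 the higher one. The call was lost without the filter (adjusted p = 0.079) and without the variance trend (adjusted p = 0.059), and the gene model Gm20547 shares exon bases with Cfb and C2 on the same strand. Cfp (chrX:20925454-20931555) encodes properdin, which stabilizes that convertase and is made by myeloid cells. It stood at 201 and 203 CPM in Ctrl versus 106 and 107 CPM in WC1, a 1.9-fold fall (-0.92 ± 0.06, adjusted p = 0.0086), with the libraries of each group nearly equal. The macrophage markers, lower in sum by the amounts given above, moved in the same direction as Cfp, and their part in it was not tested.

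Relative to C3, factor B was more abundant in WC1. The TPM ratio of Cfb to C3 was 0.265 and 0.279 in Ctrl versus 0.508 and 0.555 in WC1, and that of Cfb to C2, its classical pathway counterpart and direct neighbour on chromosome 17, was 7.88 and 8.10 in Ctrl versus 11.7 and 10.7 in WC1. These ratios were not tested. The gene models of Cfb and C2 lie 85 bases apart (chr17:34856374-34862518 and chr17:34862604-34898265).

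Of the 3 terminal pathway genes, 2 fell, compared to 7.71% of all genes. Hc (chr2:34983331-35061438), which encodes C5, the source of the C5a peptide and the first protein of the membrane pore, stood at 3.29 and 3.70 CPM in Ctrl versus 0.688 and 0.191 CPM in WC1. These levels rest on 225 and 322 reads in Ctrl versus 42 and 12 reads in WC1. The mean was 7.95-fold lower, with a ratio of 18.3-fold without WC1 library 1 and 5.08-fold without WC1 library 2, and the difference was -1.66 ± 0.20 on the log2(CPM + 1) scale, which understates changes of rare transcripts (adjusted p = 0.017). C5 is largely a liver product, and the sum of 8 hepatocyte markers was 15.7 and 34.8 CPM in Ctrl versus 5.36 and 14.0 CPM in WC1. In that list 6 genes passed the filter and Ahsg was called lower, and 4 genes were lower without overlap. Library 2 had the higher marker sum in both groups, while Hc was higher in Ctrl library 2 and lower in WC1 library 2. The part of these markers in the level of Hc was not tested. The exons of Hc overlap those of Gm13449 on the opposite strand. C7 stood at 78.7 and 82.7 CPM in Ctrl versus 58.3 and 45.3 CPM in WC1 (-0.64 ± 0.13, adjusted p = 0.037). Its call was lost without the filter, in TPM and without the variance trend (adjusted p = 0.063, 0.054 and 0.053). C6, which joins C5b before C7 does, stood at 13.3 and 13.7 CPM in Ctrl versus 19.3 and 37.1 CPM in WC1, higher without overlap but not past the threshold in limma and edgeR (0.94 ± 0.30, adjusted p = 0.088 in limma) and past it in DESeq2. Its difference was 0.48 without WC1 library 2 and 1.39 without WC1 library 1. The TPM ratio of C6 to C7 was 0.161 and 0.158 in Ctrl versus 0.315 and 0.781 in WC1.

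Of the 3 receptors for the complement peptides, 0 were called in limma or edgeR, compared to 17.9% of all genes in limma. An unadjusted p under 0.05 was found for 1 of the 3, near the 37.8% of all genes, and DESeq2 called C3ar1 lower. C3ar1, the C3a receptor of myeloid cells, stood at 493 and 462 CPM in Ctrl versus 354 and 239 CPM in WC1, lower without overlap (-0.71 ± 0.20, adjusted p = 0.065). C5ar2, the second C5a receptor, stood at 26.7 and 26.8 CPM in Ctrl versus 27.2 and 19.8 CPM in WC1 (-0.20 ± 0.16, adjusted p = 0.41). C5ar1, the signalling C5a receptor, stood at 330 and 44.3 CPM in Ctrl versus 214 and 17.0 CPM in WC1. Library 1 exceeded library 2 by 7.44-fold in Ctrl and by 12.6-fold in WC1, so that its group difference (-0.98 ± 1.45, adjusted p = 0.65) was smaller than its spread within groups. Of 14106 genes tested, 11 differed by more than 1.5 on the log2(CPM + 1) scale between library 1 and library 2 in the same direction in both groups. C5ar1 was the only member among them, and on the same scale, which understates differences of rare transcripts such as Hc, the largest difference within a group for any other member tested was 1.06. The cause was not tested. C5ar1 lies 2588 bases from C5ar2 on chromosome 7, and C5ar2 was not among the 11 genes.

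Of the 6 regulators of complement tested, 4 were higher in WC1 without overlap, compared to 32.7% of all genes, and 1 was called higher, compared to 10.2% of all genes. Cd59a (chr2:104095801-104115354), which encodes the membrane inhibitor that blocks the last step of the membrane pore, stood at 94.1 and 113 CPM in Ctrl versus 215 and 236 CPM in WC1. The mean rose 2.18-fold, from 103 ± 13 to 226 ± 14.5 CPM (SD, n = 2 libraries), or by 1.12 ± 0.11 on the log2 scale (adjusted p = 0.013). Cd55, which speeds the decay of C3 convertases, stood at 65.1 and 68.3 CPM in Ctrl versus 98.8 and 76.2 CPM in WC1 (0.38 ± 0.13, adjusted p = 0.11). Without WC1 library 1 its difference was 0.19, and without WC1 library 2 it was 0.56. Clu, which encodes clusterin, a binder of the terminal complex, stood at 49.3 and 46.5 CPM in Ctrl versus 65.6 and 138 CPM in WC1. Its group ranges did not overlap, the WC1 libraries differed widely, and it did not pass the threshold (0.98 ± 0.34, adjusted p = 0.11). Its difference was 0.45 without WC1 library 2 and 1.51 without WC1 library 1. Cfi, the factor I protease that inactivates C3b, was rare at 0.819 and 0.621 CPM in Ctrl versus 1.67 and 1.21 CPM in WC1 (0.50 ± 0.16, adjusted p = 0.087). DESeq2 additionally called Cd55 higher.

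The other regulators showed small differences or were too rare to test. Cr1l, the rodent convertase inhibitor also known as Crry, ranged from 72.2 to 78.1 CPM (-0.06, adjusted p = 0.53), and C1qbp, a largely mitochondrial protein that binds C1q, ranged from 49.8 to 56.8 CPM (-0.08, adjusted p = 0.52). In TPM these differences were 0.08 and 0.06. Cd46, a membrane cofactor for factor I that in mice is mainly found in testis, ranged from 0.117 to 0.524 CPM and did not pass the filter. Endothelial and adipocyte markers rose in WC1 with Cd59a. The sum of 8 endothelial markers was 462 and 512 CPM in Ctrl versus 958 and 1220 CPM in WC1, with 6 called higher, and of the adipocyte markers 8 were called higher. Their part in the level of Cd59a was not tested.

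Of the 11 coagulation and fibrinolysis genes, 0 were called higher and 2 were called lower in limma. The share called was 18.2%, near the 17.9% of all genes. The unadjusted p was under 0.05 for 0 higher and 6 lower genes, edgeR called 0 higher and 2 lower, and DESeq2 called 0 higher and 4 lower. The group ranges did not overlap in 8, all of them lower, where 36.6% of all genes were lower without overlap, and the median log2 fold change was -0.33.

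Procr had the largest difference of the 35 genes tested on the log2(CPM + 1) scale, while Hc had the larger ratio of group means. It lies at chr2:155751117-155755471 and encodes the endothelial protein C receptor, which presents protein C to thrombomodulin-bound thrombin for activation and so restrains clotting. It stood at 84.7 and 71.3 CPM in Ctrl versus 17.7 and 16.1 CPM in WC1, from a mean of 78.0 ± 9.46 to 16.9 ± 1.14 CPM (SD, n = 2 libraries). This is a 4.61-fold fall, or -2.14 ± 0.11 on the log2 scale (adjusted p = 0.0044), called in 16 of 17 alternatives with an adjusted p of at most 0.054. Thbd, which encodes thrombomodulin, stood at 93.4 and 89.1 CPM in Ctrl versus 74.1 and 91.9 CPM in WC1, and its groups overlapped (-0.14 ± 0.12, adjusted p = 0.42). The TPM ratio of Thbd to Procr was therefore 0.446 and 0.506 in Ctrl versus 1.69 and 2.31 in WC1. While Procr fell, 6 of 8 endothelial markers rose. The sum of the 6 mast cell markers was 553 and 613 CPM in Ctrl versus 83.2 and 65.3 CPM in WC1, with 5 called lower. Procr amounted to 0.823% and 0.766% of the macrophage marker sum in Ctrl and to 0.296% and 0.380% in WC1. The part of the mast cell and macrophage markers in the fall of Procr was not tested. Tfpi, the inhibitor of the tissue factor complex, stood at 33.4 and 31.6 CPM in Ctrl versus 28.8 and 22.1 CPM in WC1 (-0.35 ± 0.14, adjusted p = 0.13).

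Plaur (chr7:24462484-24475968) encodes the urokinase receptor, which holds urokinase at the surface of leukocytes and other cells. It stood at 108 and 104 CPM in Ctrl versus 55.0 and 40.9 CPM in WC1, a 2.21-fold fall from 106 ± 2.98 to 47.9 ± 9.98 CPM (SD, n = 2 libraries), or -1.14 ± 0.15 on the log2 scale (adjusted p = 0.018). Plau, which encodes urokinase itself, stood at 343 and 283 CPM in Ctrl versus 243 and 174 CPM in WC1, lower without overlap (-0.60 ± 0.19, adjusted p = 0.088), and was called in DESeq2. Plat, the tissue plasminogen activator, stood at 55.3 and 59.8 CPM in Ctrl versus 52.9 and 42.9 CPM in WC1 (-0.27 ± 0.12, adjusted p = 0.17). The TPM ratio of receptor to urokinase was 0.529 and 0.617 in Ctrl versus 0.379 and 0.394 in WC1. The macrophage markers, lower in sum by the amounts given above, moved in the same direction as Plaur and Plau. Their part in the levels of these genes was not tested.

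Of the 5 clotting factors, 0 were called in limma or edgeR, compared to 17.9% of all genes in limma. An unadjusted p under 0.05 was found for 3 of the 5, compared to 37.8% of all genes, and DESeq2 called F13a1 lower. F13a1, the factor XIII subunit that cross-links fibrin and is made by macrophages and megakaryocytes, stood at 149 and 167 CPM in Ctrl versus 108 and 128 CPM in WC1 (-0.42 ± 0.11, adjusted p = 0.063). Its groups did not overlap. Of 7 platelet markers, Pf4 and Itga2b were called lower in limma and 0 were called higher. Without overlap 4 were lower and 2 higher, and their sum was 95.7 and 108 CPM in Ctrl versus 62.0 and 51.5 CPM in WC1. Most of this sum was Pf4, at 84.0 and 93.3 CPM in Ctrl versus 51.4 and 44.0 CPM in WC1. The part of the platelet markers in the level of F13a1 was not tested. F3, which encodes tissue factor, the trigger of clotting, stood at 49.5 and 45.1 CPM in Ctrl versus 40.1 and 39.1 CPM in WC1 (-0.25 ± 0.08, adjusted p = 0.086). F10 stood at 30.4 and 29.4 CPM in Ctrl versus 26.6 and 21.0 CPM in WC1 (-0.33 ± 0.13, adjusted p = 0.13). The groups of these 3 genes did not overlap, whereas those of F7 and F5 did. F7, which encodes the partner of tissue factor, stood at 77.4 and 73.3 CPM in Ctrl versus 84.8 and 64.0 CPM in WC1 (-0.03 ± 0.14, adjusted p = 0.89), and its difference was 0.11 in TPM. F5, the cofactor of activated factor X, ranged from 0.790 to 1.72 CPM (-0.16 ± 0.23, adjusted p = 0.64).

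**Figure D4:**
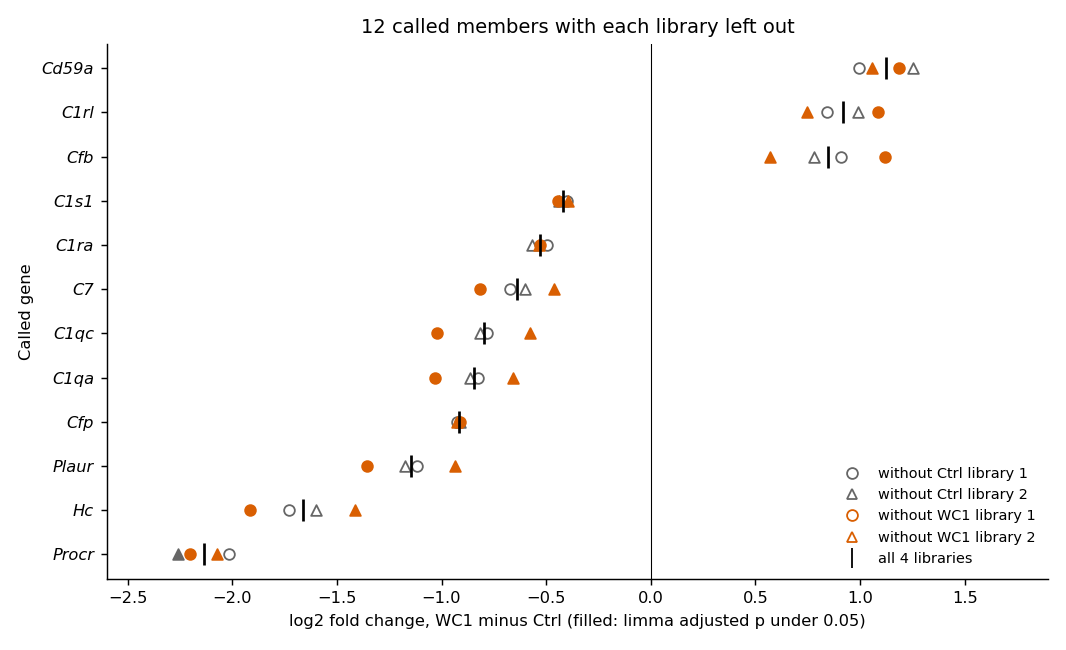
log2 fold change (WC1 minus Ctrl) of the 12 called genes with all 4 libraries (vertical bars) and with each library left out in turn, where filled symbols mark an adjusted p under 0.05 in limma. Every value keeps its sign, and without a Ctrl library the only filled symbol is that of Procr without Ctrl library 2.

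Levels were compared between genes per length, in TPM. The highest means over the 4 libraries were 1739 TPM for C1qb, which ranked 59 among all genes, 1319 TPM for C1qc and 1239 TPM for C1qa, followed by 828 TPM for C3, 380 TPM for C4b and 335 TPM for Cfb. The lowest were 0.300 TPM for F5, 0.441 TPM for Cd46, 0.572 TPM for Masp1 and 0.696 TPM for Hc. The summed TPM of all 36 genes was 9241 and 8720 in Ctrl versus 7560 and 6977 in WC1. The C1q genes made up 56.9% and 58.9% of it in Ctrl and 51.2% and 41.9% in WC1, and C3 made up 9.42% and 8.76% in Ctrl versus 9.31% and 14.0% in WC1. C1q was thus the largest component of these transcripts in every library.

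**Figure D5:**
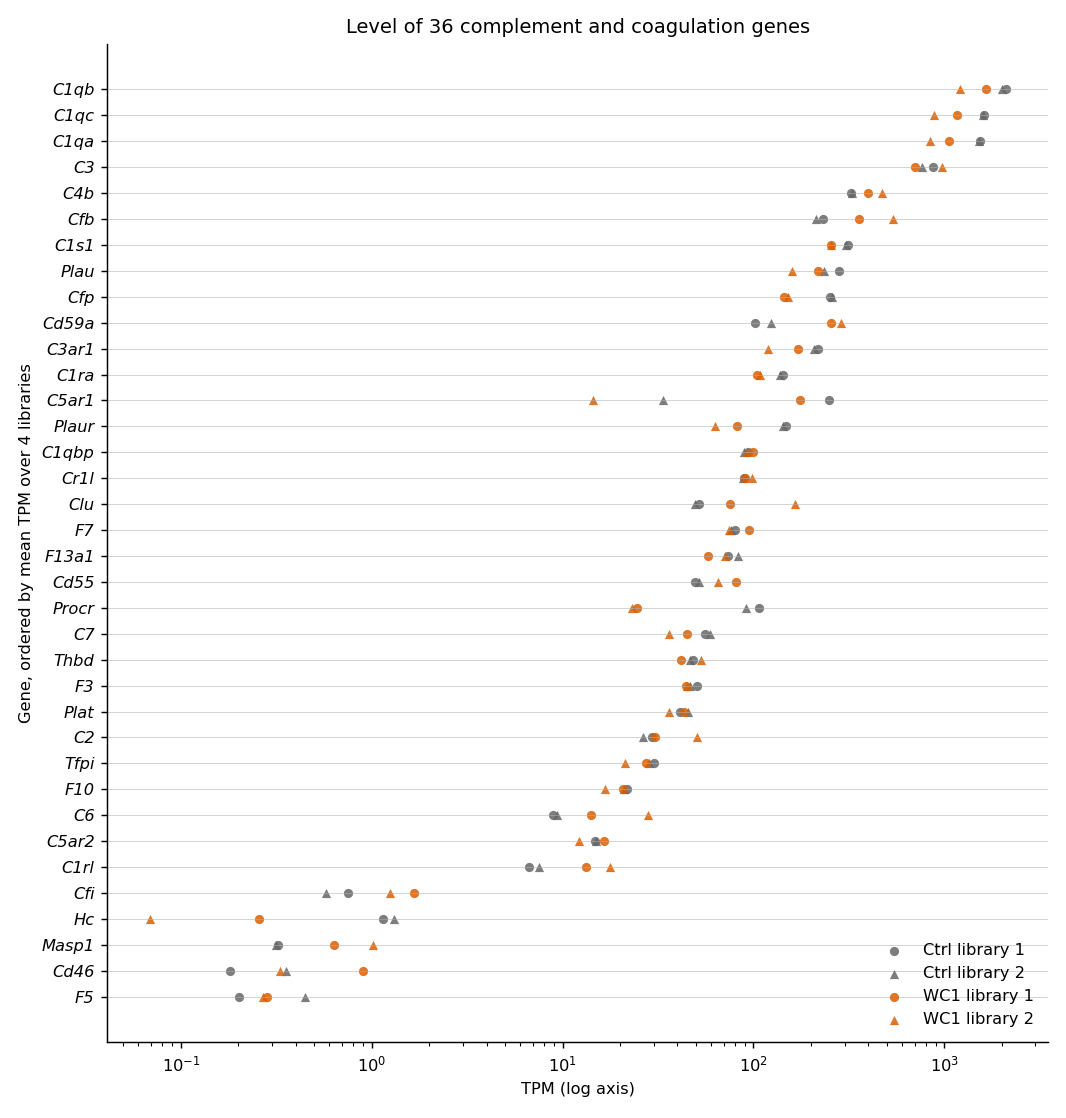
Level of all 36 genes in each library in TPM on a log axis, ordered by the mean over the 4 libraries, with grey symbols for Ctrl, orange symbols for WC1, circles for library 1 and triangles for library 2. The order runs from C1qb (mean 1739 TPM) to F5 (mean 0.300 TPM), and C5ar1 splits by library number (248 and 176 TPM in library 1 of Ctrl and WC1, 33.7 and 14.4 TPM in library 2) rather than by group.

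Other genes of these cascades were taken from a list of 66, of which 35 passed the filter. Of these, 2 were called higher (Cfd and Cd59b) and 7 lower (among them Itgam, Itgb2, Kng2, Pros1 and Vsig4), 25.7% in all compared to 17.9% of all genes, with a median log2 fold change of -0.07. With either Ctrl library left out these 9 calls were lost, and without the filter the calls of Cfd, Cd59b and Serping1 were among those lost (adjusted p = 0.068, 0.050 and 0.076). The call of Cfd was also lost without the variance trend (adjusted p = 0.051). Cfd encodes factor D, or adipsin, the adipocyte protease that activates factor B. It stood at 61.3 and 83.9 CPM in Ctrl versus 164 and 322 CPM in WC1, a 3.34-fold rise (1.66 ± 0.34, adjusted p = 0.037), and its difference ranged from 1.18 without WC1 library 2 to 2.15 without WC1 library 1. Factor B and factor D were therefore higher, and properdin lower, in WC1.

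Among the inhibitors, Serping1, the C1 inhibitor, stood at 741 and 741 CPM in Ctrl versus 540 and 581 CPM in WC1 (-0.40 ± 0.10, adjusted p = 0.048), a call lost in TPM (-0.26, adjusted p = 0.11), with median-of-ratios scaling (adjusted p = 0.054) and after quantile normalization (adjusted p = 0.089). Pros1, which encodes protein S, the cofactor of activated protein C, fell by 0.49 ± 0.09 on the log2 scale (adjusted p = 0.029). The complement receptor genes Itgam and Itgb2, chains of CR3 on myeloid cells, fell by 0.96 and 1.11 (adjusted p = 0.041 and 0.036), and Vsig4, a C3b receptor of macrophages, fell by 0.94 ± 0.12 (adjusted p = 0.019). Itgam is also among the 10 macrophage markers counted above, whose sum was 10284 and 9307 CPM in Ctrl versus 5977 and 4243 CPM in WC1, and the part of these markers in the levels of the 3 genes was not tested. Kng2, a kininogen gene, stood at 5.50 and 5.11 CPM in Ctrl versus 1.44 and 1.38 CPM in WC1 (-1.39 ± 0.11, adjusted p = 0.010). Cd59b, the copy of Cd59a, stood at 1.74 and 1.87 CPM in Ctrl versus 3.23 and 3.59 CPM in WC1 (0.65 ± 0.12, adjusted p = 0.030). The endothelial product Vwf, the von Willebrand factor, was higher without overlap but did not pass the threshold (0.27 ± 0.08, adjusted p = 0.082).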

How the data were processed

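Total RNA of epididymal adipose tissue had been poly(A)-selected and made into directional libraries, 2 labelled high-fat control (Ctrl) and 2 labelled weight cycling (WC1). The submitters' processing notes name fastp, HISAT2, StringTie and the build mm10, without a read counter or an annotation. The first deposited matrix holds a signal proportional to reads, which the authors scaled to library size with a further factor per library (written as CPM). Each value was a whole multiple of 1 read (100% of values within 0.01 read). In the second, the authors deposited TPM.

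Genes reaching 0.5 CPM in 2 or more of the 4 libraries were tested (14106 genes) on log2(CPM + 1) with limma 3.58.1 in R 4.3.3 (two-sided, moderated variance with an abundance trend), adjusted by Benjamini-Hochberg over all of them, with a threshold of 0.05. An exact permutation test of 2 against 2 libraries cannot go below p = 0.333. edgeR 4.0.16 and DESeq2 1.42.0 were run on the recovered reads, and edgeR called 1476 genes higher and 1007 lower. Other alternatives changed the pseudocount, filter, normalization, variance trend, matrix, replicate block, libraries or, chosen after seeing the data, the treatment of related gene copies. Scripts were tested on simulated data. All 36 members could be named, and other pathway genes by a list, some of which are not reported here. Members and lists were chosen with earlier results of these data known, and the promoters, the motifs, the marker sum without Lyz2 and the library difference of C5ar1 were chosen after values were seen. Locations are from GENCODE M21 (GRCm38).

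The labels number the libraries 1 and 2 in each group and nothing ties equal numbers together.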

Additional observations from a re-analysis of the deposited data

How the results depend on the processing

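The calls rested on 2 libraries per group, and the effect of depth was not tested. With 1 library left out, its group has a lone library, whose spread is taken from the other group. Over these 4 fits the number of genes called higher ran from 2 to 2422 and lower from 4 to 2797, compared to 1443 and 1088 with all libraries. Members called higher ran from 0 to 7 and lower from 0 to 17, compared to 3 and 9, and the members' median from -0.36 to -0.17. Without Ctrl library 1 no member was called, and without Ctrl library 2 only Procr. Without the filter, 788 genes were higher and 532 lower, and 5 members were lower. In TPM 583 genes were lower, 77.9% of the called genes were higher compared to 57.0% in CPM, and the members' median was -0.11 where the median of all genes was 0.10. DESeq2 called 1736 genes lower and 5 members higher. The cause was not tested for the filter, TPM or DESeq2. Over 17 alternatives, 170 of 203 values of the 12 called members kept their call, and 0 changed sign. Opposite signs were found under some alternative for C3, C5ar1, C5ar2, Cr1l, C1qbp, F5, F7 and Thbd, none of them called with all libraries and no block.

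With the library number as a replicate block, 14 members were called lower and 4 higher, and calls over all genes also grew, to 1769 higher and 1497 lower. Beyond the members called without the block, limma then called C5ar1, C3ar1, C1qb, F13a1 and Plau lower (adjusted p = 0.026, 0.028, 0.035, 0.021 and 0.016). It also called C6 higher (adjusted p = 0.045). The differences between library 1 and library 2 in Ctrl and in WC1 correlated with r = 0.19 over 14106 genes, which are not independent, and 2 pairs do not show that the numbers pair the samples.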
